A study of Mus with 4 samples.

Results

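Deubiquitinase genes gave rise to circular RNAs (circRNAs) in every library of this study of mouse ocular tissue. The hosts were chosen by name: a circRNA counted where its deposited host was a single gene whose symbol starts with Usp, Otud or Uchl followed by a digit or letter, with Uspl1 left out. This gave 48 host genes of 7146 and 426 circRNAs of 44073. Of the hosts 41 were Usp genes (402 circRNAs), 5 were Otud genes (21) and 2 were Uchl genes (3). One of them goes against the name: Usp6nl encodes a GTPase-activating protein for Rab proteins and no deubiquitinase, and it was kept because the rule keeps it.

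Ubiquitin is a small protein that ligases attach to other proteins, often as a chain that sends them to the proteasome. Deubiquitinases are proteases that cut ubiquitin off again, and so they spare proteins from degradation or end a ubiquitin signal. The USP, OTU and UCH families are all cysteine proteases. In a circRNA the end of an exon is spliced back to the start of the same or an earlier one, and the reads counted here cross that back-spliced junction. They count circles of the gene, not its messenger RNA or protein. Ribosomal and linear RNA had been removed before sequencing, per the labels' protocols.

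Ocular tissue came from C57BL/6J mice, either wild type or with VLDLR deletion, the gene of the very-low-density lipoprotein receptor. All pups, the wild-type ones included, had been kept in 75% oxygen, beginning on postnatal day 7 (P7) and ending on P12. Tissue was taken at P12, or at P13 after 1 day in room air, which makes 4 groups of 1 library each: P12 and P13 of wild type, then P12 and P13 of the deletion. Values in pairs below stand for P12 and P13, and values in fours follow the order just given. The labels give neither the deletion allele nor the number of animals per library, and P13 differs from P12 in both age and oxygen.

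The libraries held 662811, 759063, 299723 and 341873 junction reads in that order, fewer in the deletion libraries. These are reads of circles and do not give the total depth of sequencing. The reads of the wild-type libraries carried 1 sequencing run and those of the deletion libraries another, with 0 runs shared, and genotype and run cannot be told apart. Each wild-type library came from 2 lanes and each deletion library from 1, so that the number of lanes also goes with genotype. Vldlr had 0 junction reads in all 4 libraries, which leaves the genotype labels unchecked by it. The summed level of 11 hosts known as photoreceptor markers was 7115 and 8321 scaled reads (defined below) for wild type against 10636 and 10565 with the deletion. Hosts known as lens markers (6 of 8, with Lgsn and Lim2 at 0) stood at a sum of 881 and 1095 against 2739 and 2042, although of 4 tested Bfsp1 rose, Cryga and Prox1 fell and the median fold change was -0.30 on the log2 scale. The 4 leukocyte and 4 corneal marker genes were at 0 in every library. The part of these shifts in the results below was not tested, and in such bulk tissue fewer cells of a type and less RNA per cell cannot be told apart.

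As a family the deubiquitinase hosts held a similar share of the circRNA reads in every library. They took 3871, 4415, 1662 and 1950 of the junction reads. These were 0.584% (95% exact binomial interval 0.566% to 0.603%), 0.582% (0.565% to 0.599%), 0.555% (0.528% to 0.582%) and 0.570% (0.545% to 0.596%). The 4 intervals overlap, and no difference in the share was detectable at this depth. Without molecular identifiers on the reads, such intervals cover counting error alone. Listed circRNAs of the family numbered 268, 301, 165 and 176, or between 0.874% and 0.964% of the circRNAs listed in a library.

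A few hosts held most of these reads. Usp3, Usp32 and Usp12 alone took 37.5% of them over the 4 libraries, and the 10 leading hosts took 74.1%. At the other end 11 hosts had fewer than 20 reads in all. Another 20 protein-coding genes with a name that fits the rule had no listed circRNA, among them Uchl1, Usp1, Usp18, Usp21, Usp22 and Otud3. Of these Uchl1 is known as an abundant ubiquitin hydrolase of neurons. An unlisted circRNA can hold 1 read, since the tables start at 2.

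Levels below are scaled reads, that is, junction reads per 1000000 of a library size adjusted with edgeR's TMM method. Each junction is 1 splice point, so that counts need no division by length. The genotype was tested over both days in 1 fit to all hosts that reached 10 reads in 2 or more libraries (edgeR's quasi-likelihood test with genotype and day as terms, Benjamini-Hochberg adjustment over 3899 hosts). The fit leaves 1 residual degree of freedom, and its estimate of spread borrows from all hosts fitted. Its p-values rest on these 4 libraries and do not measure a host's own spread alone, nor the spread between animals. Fold changes are log2, deletion over wild type, with an approximate standard error (SE). Of the 48 hosts 32 passed the filter. The other 16 held 238 of the family's 11898 reads.

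**Figure D1:**
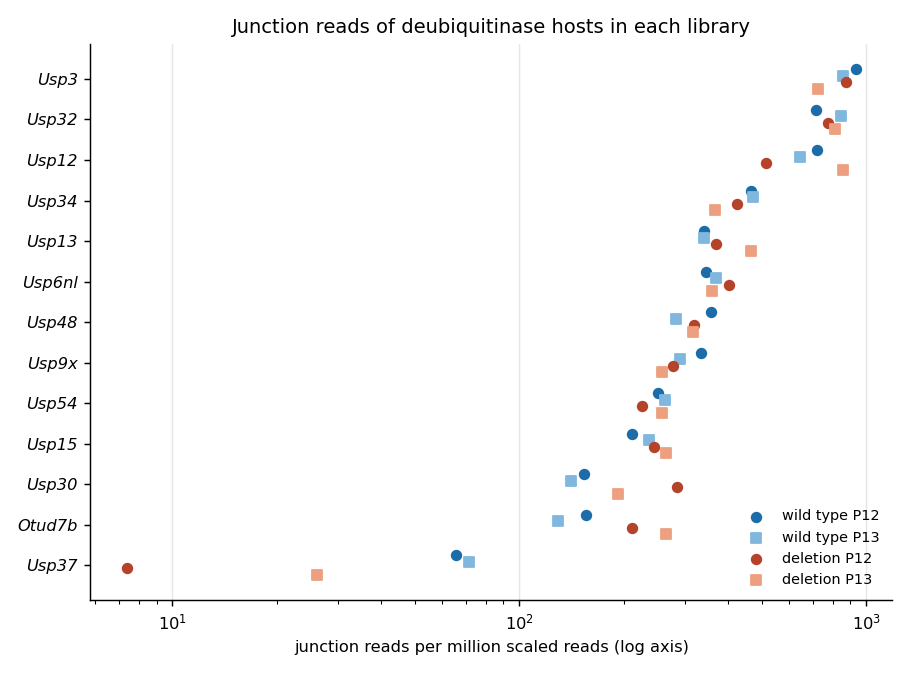
Scaled reads (junction reads per 1000000 of adjusted library size) (log axis) for the 12 deubiquitinase hosts with most reads and for Usp37, 1 point per library. Most hosts have 4 points close together, while the points of Usp30 and Otud7b lie higher in both deletion libraries and those of Usp37 lower.

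The comparison of genotypes asked which circles differ in the deletion after high oxygen. Otud7b rose and Usp37 fell, and the remaining 30 tested hosts did not pass. Usp37 had met the filter through the wild-type libraries alone, where it is high. The counts stand beside a background of 7.44% higher and 6.59% lower among all hosts tested, and 1 host of 32 in each direction does not exceed it. At an unadjusted p under 0.05, 3 deubiquitinase hosts were higher and 1 was lower, beside 11.9% and 12.7% of all hosts. The median fold change of the 32 hosts was 0.01, against -0.05 over all hosts, and 20 of the 32 lay within 0.5 of 0 on the log2 scale. By DESeq2 none of the 32 passed, but its share over all hosts was not counted, so that this 0 says nothing particular to the members. These directions are relative to TMM scaling. With the deposited SRPBM constants as the scale the median of all hosts moved from -0.05 to -1.57. The members' median stood at -1.51, with 0 of the members called higher and 27 lower. The share of all hosts called on that scale was not counted.

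**Figure D2:**
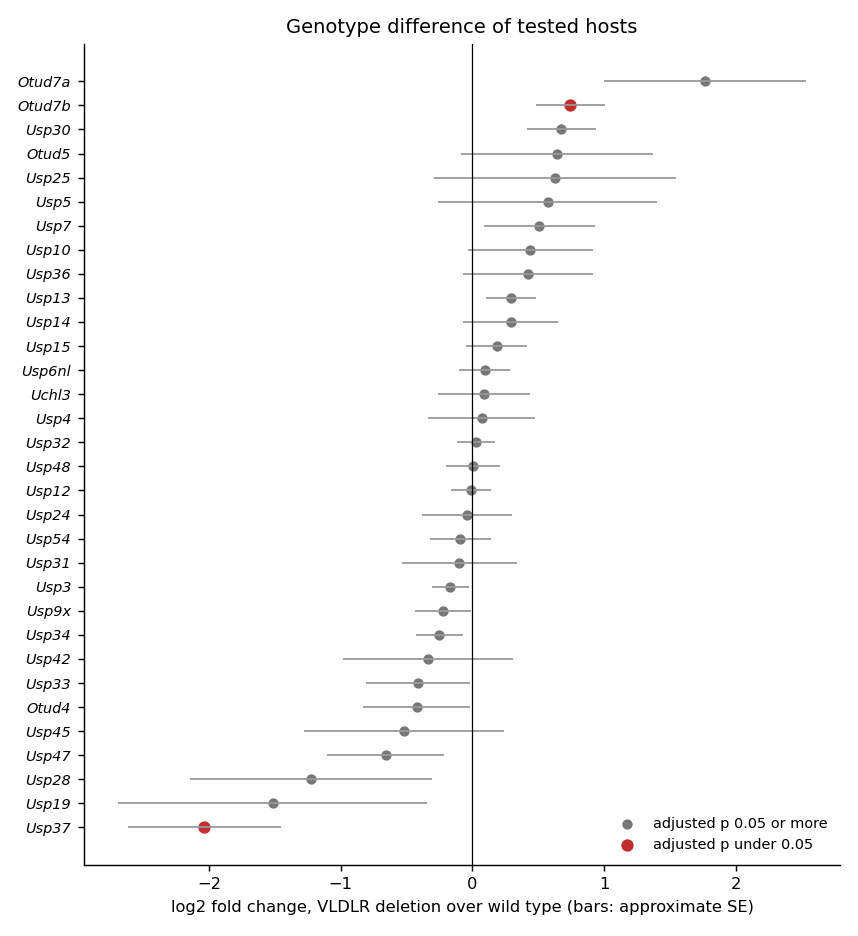
Log2 fold change of junction reads in the VLDLR deletion over wild type for the 32 tested hosts, with approximate SE as bars. Otud7b (0.74) and Usp37 (-2.04) carry the red points of an adjusted p under 0.05, and the most abundant hosts sit near 0 with short bars.

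Otud7b encodes Cezanne, an OTU protease with a preference for chains linked through lysine 11 of ubiquitin, which in human cells has been tied to the hypoxia factor HIF1A. Positions below are those of the deposited tables, whose genome build was not given in the sources used here. Otud7b had 97 and 92 wild-type reads against 57 and 81 with the deletion. Scaled, these were 155 and 129 against 211 and 264, so that both deletion libraries lay above both wild-type libraries. The fold change was 0.74 (SE 0.26, adjusted p 0.0356, edgeR's quasi-likelihood test). The host did not pass by DESeq2 (adjusted p 0.553) and was called lower on the deposited SRPBM scale (-0.78), where the median of all hosts was -1.57. Leaving out any 1 library other than deletion P12 also ended the call (adjusted p from 0.135 to 0.393).

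Otud7b made 4 circRNAs, all of the exon class and all listed in both genotypes. The most abundant spans 855 bases (chromosome 3, 96144241 to 96145095, plus strand) and held 45 and 44 wild-type reads against 28 and 47 with the deletion. The next (96136474 to 96145095) ends at the same splice site and held 32 and 35 against 18 and 17. Another (96140417 to 96141715) held 16 and 10 against 11 and 15. None of these 3 passed alone (adjusted p 0.106, 0.824 and 0.281), and the first and the last had the larger fold changes, 0.87 and 1.15 against 0.21. At P13 the deletion library exceeded wild type 2.38-fold for the first (95% counting interval 1.54 to 3.68) and 3.34-fold for the last (1.40 to 8.32). At P12 these ratios were 1.38 (0.826 to 2.25) and 1.52 (0.638 to 3.49), and that of the host was 1.36 (0.960 to 1.90). All of these P12 intervals include 1.

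Usp37 encodes a deubiquitinase of the cell cycle that opposes the degradation of cyclin A. It had 41 and 51 wild-type reads against 2 and 8 with the deletion, or 65.7 and 71.7 scaled reads against 7.39 and 26.1. Both deletion libraries were low, deletion P12 most of all. Usp37 met the filter through the wild-type libraries alone, as did Usp19, Usp28 and Usp45, so that its fall is given as its values and supports nothing about the family. The fold change was -2.04 (SE 0.58, adjusted p 0.00607, edgeR's quasi-likelihood test). The call ended without deletion P12 (-1.39, adjusted p 0.105) and without the host's largest circRNA (-1.62, adjusted p 0.215). DESeq2 gave no adjusted p, and without either wild-type library the host missed the filter. The reads were spread over 14 circRNAs, each below the filter, of which 10 appeared for wild type alone, 2 for the deletion alone and 2 for both. The largest (chromosome 1, 74450495 to 74461730, minus strand, exon class) held 9 and 13 wild-type reads and was unlisted in both deletion libraries. With 3 reads set for each unlisted library, the deletion was 1.36-fold lower at P12 and 1.94-fold lower at P13. These ratios leave out the counting error of the wild-type reads. Of the 14, 8 shared the splice site at 74500100 and held 41.2% of the host's reads.

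Usp30 encodes a deubiquitinase anchored in the outer mitochondrial membrane, where it opposes the removal of mitochondria that parkin starts. As a host it had 96 and 100 wild-type reads against 77 and 59 with the deletion. Scaled, these were 154 and 141 against 285 and 192. The sum missed the threshold (0.67, SE 0.26, adjusted p 0.0622, edgeR's quasi-likelihood test). Its main circRNA alone did pass in the fit to single circRNAs described next.

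Otud7a, the paralogue of Otud7b and a gene of neuronal development, had 6 and 15 wild-type reads against 18 and 12 with the deletion. In scaled reads these were 9.61 and 21.1 against 66.5 and 39.1. The fold change of 1.76 (SE 0.77) did not pass (adjusted p 0.114, edgeR's quasi-likelihood test). Among the fits that dropped 1 library, Otud7a passed only where deletion P13 was the one dropped, at a fold change of 2.09. Dropping wild type P12, wild type P13 or deletion P12 instead gave 1.27, 2.37 and 1.32, and the host did not pass.

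Single circRNAs were tested the same way, over the 8785 circRNAs that reached 10 reads in 2 or more libraries. Of the 426 deubiquitinase circRNAs 65 passed this filter. One each from Usp30 and Usp6nl rose and 1 from Usp34 fell. The background was 5.03% higher and 3.59% lower among all circRNAs, and 2 and 1 of 65 stand near or below it. By DESeq2 none of the 65 passed, and its share over all circRNAs was not counted. At an unadjusted p under 0.05 by edgeR, 4 were higher and 1 was lower, beside 11.1% and 9.49% of all circRNAs.

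The Usp30 circRNA (chromosome 5, 114102383 to 114103826, plus strand, exon class) spans 1444 bases. It held 83 and 84 wild-type reads against 71 and 59 with the deletion, or 145 and 130 scaled reads against 275 and 203. Both deletion libraries lay above both wild-type libraries. The fold change was 0.78 (SE 0.23, adjusted p 0.0436, edgeR's quasi-likelihood test). It took 84.0% or more of the host's reads in each library. On the SRPBM scale it stood at -0.67 without passing, and without any 1 library other than deletion P13 it did not pass either (adjusted p from 0.191 to 0.369).

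Usp34 is a large USP gene whose product acts on axin in Wnt signalling. With 53 it had the most circRNAs of the family. One of them fell (chromosome 11, 23414736 to 23420144, plus strand, exon class): it held 41 and 84 wild-type reads against 10 and 8 with the deletion. Scaled, these were 71.8 and 130 against 38.7 and 27.5. Both deletion libraries were below both wild-type libraries, and wild type P13 stood highest. The fold change was -1.58 (SE 0.44, adjusted p 0.0317, edgeR's quasi-likelihood test). Without wild type P13 (adjusted p 0.200) or deletion P13 (adjusted p 0.0574) the call ended.

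The most abundant circRNA of Usp34 did not pass. It lies upstream of the one that fell (chromosome 11, 23401453 to 23405953) and held 83 and 79 wild-type reads against 40 and 41 with the deletion, a fold change of 0.15 (adjusted p 0.796, edgeR's quasi-likelihood test). The circRNA that fell made up 14.1% (10.3% to 18.6%) and 25% (20.5% to 30.0%) of Usp34 junction reads in wild type P12 and P13. In deletion P12 and P13 it made up 8.70% (4.25% to 15.4%) and 7.14% (3.13% to 13.6%). These exact binomial intervals do not overlap at P13 and do overlap at P12. They use the same reads by which this circRNA was singled out, and so they are a description and no separate support. Yet another Usp34 circRNA (23345150 to 23355098) held 12 and 15 reads in wild type and was unlisted in the deletion. With 3 reads set for each unlisted library, the deletion was 1.81-fold lower at P12 and 2.24-fold lower at P13. These ratios leave out the counting error of the wild-type reads. The summed Usp34 reads were 291 and 336 against 115 and 112, and they did not pass (-0.25, SE 0.18, adjusted p 0.416, edgeR's quasi-likelihood test).

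The Usp6nl circRNA that rose comes from the gene of the Rab GTPase-activating protein. It spans 63952 bases (chromosome 2, 6336368 to 6400319, plus strand, exon class). It held 19 and 8 wild-type reads against 21 and 20 with the deletion, or 33.3 and 12.4 scaled reads against 81.2 and 68.8. The fold change was 1.79 (SE 0.49, adjusted p 0.0278, edgeR's quasi-likelihood test). Within wild type it was lower at P13 than at P12 (ratio 0.371, 95% counting interval 0.141 to 0.889). The call ended without wild type P13 (adjusted p 0.346) and without deletion P12 (adjusted p 0.0588). The main Usp6nl circRNA starts at the same splice site and runs to 6409009. It held 53 and 67 wild-type reads against 25 and 29 with the deletion, and its fold change was 0.00 (adjusted p 0.998). The host sum had 215, 262, 109 and 110 reads and a fold change of 0.09 (adjusted p 0.825).

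**Figure D3:**
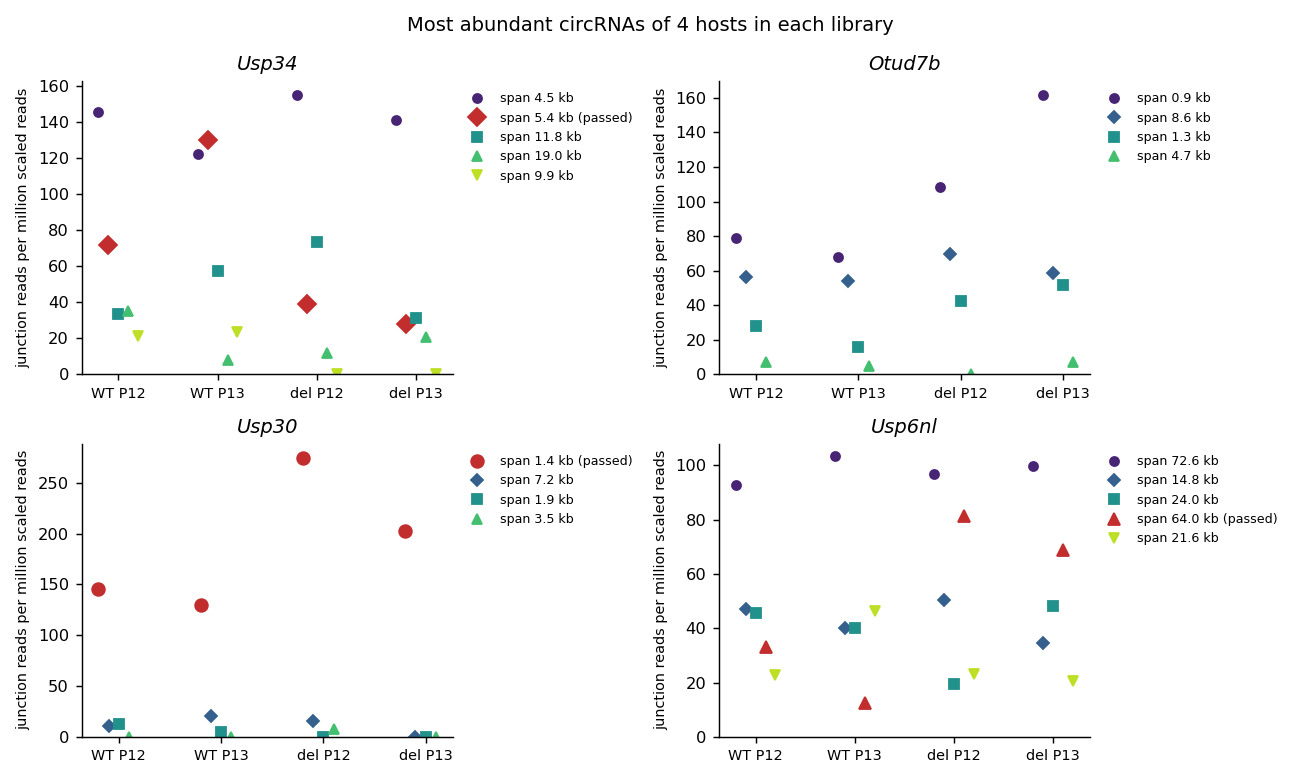
Scaled reads (junction reads per 1000000 of adjusted library size) of the 4 or 5 most abundant circRNAs of Usp34, Otud7b, Usp30 and Usp6nl in the wild type (WT) and deletion (del) libraries, 1 point per library, with each circRNA named by its genomic span. Red marks the 3 circRNAs with an adjusted p under 0.05 (Usp34 -1.58, Usp30 0.78 and Usp6nl 1.79 on the log2 scale), and the other circRNAs shown did not pass or were below the filter.

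The chromatin-acting members were led by Usp3, the most abundant host of all. USP3 removes ubiquitin from histones H2A and H2B. Its host sum was 583 and 610 wild-type reads against 237 and 222 with the deletion, or 934 and 857 against 876 and 724 scaled reads. The ranges overlap, and the fold change of -0.17 (SE 0.14) did not pass (adjusted p 0.515, edgeR's quasi-likelihood test). One circRNA took 82.9% of these reads (chromosome 9, 66540062 to 66566903, minus strand, exon class), with 476, 512, 201 and 181 reads. Its end was shared by 9 of the 12 Usp3 circRNAs. A minor one (66562554 to 66566903) held 4 and 7 wild-type reads against 9 and 14 with the deletion, and the deletion library at P13 was 4.46-fold higher for it (1.68 to 13). Of the 8 genes listed here for histones H2A and H2B, Usp16 and Usp49 (15 reads each in all) also had circles, and the list leaves out members with further histone roles. Usp48, a nuclear deubiquitinase, had 222, 201, 86 and 97 reads and a fold change of 0.00 (adjusted p 0.999). Of its 27 circRNAs 12 started at 1 splice site (chromosome 4, 137604523), and these held 65.8% of its reads. The leading one ran to 137613861 with 55, 52, 18 and 20 reads.

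Among the members known from membranes and signalling, Usp32 came first. Its product sits on membranes and acts on Rab7. The 446, 602, 210 and 249 reads gave 715, 846, 776 and 812 scaled reads, which overlap between genotypes (0.03, SE 0.14, adjusted p 0.940). They came from 42 circRNAs. The largest (chromosome 11, 85077265 to 85104026, minus strand, exon class) held 147, 179, 53 and 68 reads. The second (85017630 to 85022905) held 97, 185, 52 and 72, and 8 circRNAs used its start. An intronic one (85036480 to 85040170) held 17 and 20 reads in wild type, 4 in deletion P12 and none listed in deletion P13.

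Usp12, whose product works with the WD-repeat protein WDR48, was high in 1 library. It had 450 and 457 wild-type reads against 139 and 262 with the deletion. The levels were 721 and 642 against 514 and 855 scaled reads: deletion P12 was the lowest and deletion P13 the highest of the 4. The genotype difference over both days was -0.01 (SE 0.15, adjusted p 0.975). Deletion over wild type was 0.713 at P12 (95% counting interval 0.585 to 0.864) and 1.33 at P13 (1.14 to 1.55), opposite directions that both fell short of 1.5-fold. Deletion P13 exceeded deletion P12 1.66-fold (95% counting interval 1.35 to 2.06). In wild type the ratio of P13 to P12 was not called. The main circRNA (chromosome 5, 146751695 to 146754599, minus strand, exon class) held 309, 320, 78 and 174 reads. A smaller one (146763201 to 146769017) held 49, 46, 13 and 36, 2.46-fold higher in deletion P13 than in deletion P12 (1.28 to 5.06). Another (146751695 to 146763414) held 56, 54, 31 and 34 and was not called.

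None of the next hosts passed. Usp13, a paralogue of Usp5, had 212, 242, 100 and 143 reads with its largest circRNA at chromosome 3, 32861771 to 32865966 (110, 114, 56 and 89 reads). Its fold change was 0.30 (SE 0.19, adjusted p 0.358). The ratio of deletion to wild type was 1.37 at P13 (95% counting interval 1.11 to 1.69) for the host and 1.74 (1.30 to 2.32) for that circRNA, both below the fold for a call. Usp9x, an X-linked gene of neuronal development, had 209, 207, 75 and 79 reads and -0.22 (SE 0.22, adjusted p 0.585). Its main circRNA lay at chromosome X, 13123168 to 13124663 (52, 68, 33 and 29 reads), and another (13110076 to 13124663) held 11 and 9 reads in wild type and was unlisted in the deletion. Usp15, whose product acts in TGF-beta signalling, had 132, 168, 66 and 81 reads and 0.18 (SE 0.23, adjusted p 0.705). Its main circRNA (chromosome 10, 123168227 to 123181800) held 87, 98, 41 and 37 reads, and 5 circRNAs with that end held 88.6% of the host's reads. Usp54, long classed among the members without activity, had 157, 187, 61 and 79 reads and -0.09 (SE 0.23, adjusted p 0.859). Of these, 116, 141, 40 and 48 came from 1 circRNA (chromosome 14, 20604052 to 20607905). All p-values in this paragraph come from edgeR's quasi-likelihood test over all hosts.

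**Figure D4:**
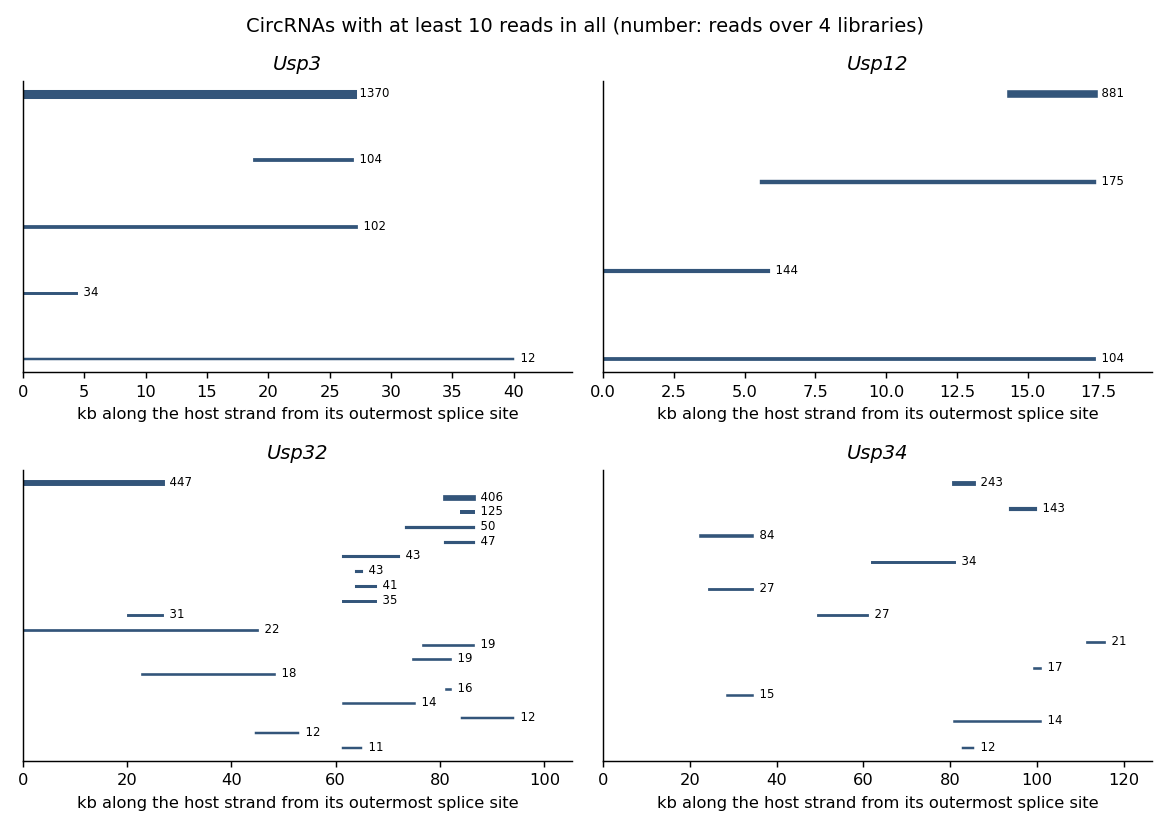
Position of circRNAs that reached 10 reads in all, within Usp3, Usp12, Usp32 and Usp34, in kb along the host strand from the outermost listed splice site, with line width growing with reads and the number giving the reads. Usp3 and Usp12 are led by 1 circle (1370 and 881 reads), while Usp32 and Usp34 spread over many, some with a shared end.

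Hosts linked to oxygen sensing through VHL or HIF proteins, chiefly in human cells, numbered 9 of 10 listed genes, with Uchl1 at 0. Of the 5 tested, Otud7b rose, Usp37 fell and 3 did not pass, beside 7.44% higher and 6.59% lower of all hosts. Of the 5, 3 met the filter through wild type alone, so that their median fold change of -1.23 is a description. Usp33, whose product binds VHL, had 47 and 87 wild-type reads against 23 and 19 with the deletion (-0.41, SE 0.39, adjusted p 0.581, edgeR's quasi-likelihood test). The deletion over wild type ratio was 0.507 at P13 (95% counting interval 0.291 to 0.840) and 1.13 at P12 (0.654 to 1.90). Usp28 had 27 and 15 against 6 and 2 reads, and Usp19 had 23 and 10 against 6 and none listed, and neither passed (adjusted p 0.448 and 0.464, edgeR's quasi-likelihood test). The summed level of the 9 hosts was 394, 403, 377 and 391 scaled reads, of which Otud7b held 155, 129, 211 and 264.

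The remaining role groups had no host that passed. Of the proteasome-bound members Usp14 had 51, 71, 35 and 29 reads and Uchl5 had 0, 4, 5 and 4. Uchl3, whose loss causes retinal degeneration in mice, had a single circRNA (chromosome 14, 101665761 to 101668576, plus strand, exon class). Its 64, 73, 28 and 35 reads gave 103, 103, 104 and 114 scaled reads, nearly the same in every library (0.09, SE 0.35, adjusted p 0.919, edgeR's quasi-likelihood test). Usp45, a gene of human Leber congenital amaurosis, had 11 and 36 wild-type reads against 5 and 8 with the deletion. Of the 7 listed DNA-repair members 6 had circles and 5 were tested, among them Usp10 with 36, 27, 12 and 26 reads. The deletion over wild type ratio of Usp10 was 2.23 at P13 (95% counting interval 1.25 to 3.98) and 0.769 at P12 (0.364 to 1.51). Usp9y, on the Y chromosome and close in sequence to Usp9x, had 2 reads in wild type P13 alone, and its assignment is uncertain.

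Single libraries were also compared in pairs, with no replicate check and no p-value. A host was called where the ratio of scaled reads was at least 1.5-fold and the exact 95% counting interval excluded 1, with at least 20 reads in the pair. At P12, of 31 deubiquitinase hosts Otud7a (6.92-fold, 2.63 to 21.3) and Usp30 (1.85-fold, 1.35 to 2.52) were called higher in the deletion and Usp37 lower (0.113, 0.0132 to 0.433). Of all hosts 13.3% were called higher and 14.0% lower. At P13, Otud7b (2.04-fold, 1.5 to 2.78) and Usp10 were called higher and Usp33 and Usp37 lower (Usp37 0.364, 0.149 to 0.773), of 31 hosts and beside 11.9% and 13.4% of all hosts. In both comparisons the called share of the members was below that of all hosts. Of 28 hosts in both comparisons none was called in opposite directions at P12 and P13 (0.672% of all hosts were). By the intervals alone, with no fold, Usp12 was (1.14% of all hosts), and so was its main circRNA, with 0.558 (0.430 to 0.717) at P12 and 1.21 (1.00 to 1.46) at P13 (0.726% of all circRNAs).

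For single circRNAs the calls needed 2-fold. At P12, 3 of 56 were higher in the deletion, from Usp34, Usp14 and Usp6nl, and none was lower, beside 10.9% and 10.6% of all circRNAs. At P13, 5 of 59 were higher, from Usp32, Usp6nl, Usp3 and 2 of Otud7b, and 3 were lower, from Usp34, Usp32 and Otud4 (10.3% and 9.58% of all). The Usp6nl circRNA named above was called higher at both days, 2.44-fold at P12 (1.25 to 4.80) and 5.57-fold at P13 (2.35 to 14.6). The Usp34 circRNA that fell was called at P13 (0.212, 0.0887 to 0.438).

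The day comparison asked what changes over the first day out of oxygen. No deubiquitinase host of 32 and no circRNA of 65 passed in edgeR's test of the day, beside 0.0256% of all hosts higher and 0.0769% lower, and 0.0114% of all circRNAs in each direction. DESeq2 called none of these members either, and its share over all hosts and circRNAs was not counted. At an unadjusted p under 0.05 by edgeR none of the hosts and 2 of the circRNAs stood out, both higher at P13, beside 2.36% of all hosts in each direction and 1.80% higher and 1.78% lower of all circRNAs. Usp19 had the smallest p among the deubiquitinase hosts (-2.07 at P13 over P12, adjusted p 0.999 by edgeR), with Usp12 (0.23) and Usp45 (1.11) next.

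In pairs of libraries, P13 exceeded P12 in wild type for Usp33 (1.62-fold, 1.13 to 2.37), Usp40 (4.97-fold, 1.44 to 26.5), Usp45 (2.87-fold, 1.43 to 6.25) and Usp53 (4.17-fold, 1.38 to 16.8). Usp19 (0.381, 0.162 to 0.833) and Usp28 (0.487, 0.241 to 0.949) were lower. These 4 and 2 calls of 35 hosts stand beside 6.68% and 6.76% of all hosts. In the deletion Usp12 was the 1 call of 25, higher at P13, beside 5.92% and 6.39%. A Usp15 circRNA (chromosome 10, 123163593 to 123181800) held 11 and 34 wild-type reads against 11 and 24 with the deletion. It was called higher at P13 in wild type (2.73-fold, 1.35 to 5.97). Over both genotypes it had the smallest p of the day test among the deubiquitinase circRNAs tested. Its fold change of 1.20 did not pass (adjusted p 0.999, edgeR's quasi-likelihood test). For circRNAs the calls were 3 higher and 4 lower of 75 in wild type (4.48% and 4.62% of all) and 2 higher and 1 lower of 39 in the deletion (208 of 5206 and 4.19% of all).

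The structure of the circles was also compared with all circRNAs that have a single host. Deubiquitinase circRNAs were 96.2% of the exon class, against 91.6%, and 16 were intronic. Their median span was 8577 bases, against 10690, with a range from 245 to 94211 bases. A host had a median of 4.5 circRNAs, against 3. At least 1 splice site was shared with another circRNA of the host in 375 of 426 (88.0%), against 82.8% of all. In all 4 libraries 97 circRNAs were listed (22.8%, against 25.6% of all), and these held 81.0% of the family's reads, against 86.9% over all hosts. Another 192 were listed in a single library (45.1%, against 41.4% of all), with at most 11 reads. Of the 426, 194 appeared for wild type alone, 46 for the deletion alone and 186 for both. These are 45.5%, 10.8% and 43.7%, against 42.0%, 10.5% and 47.5% of all, in libraries of which the wild-type ones held more junction reads. These are descriptions of the listed circles, and no test was run on them.

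The deposited tables also count reads at the same splice sites that do not cross the back-splice. The circle fraction, 2 times the junction reads over 2 times the junction reads plus the other reads, says how far the circle dominates its sites in RNA from which linear transcripts had been depleted, so that it is no share of the circle in the cell. It shares the junction reads with the comparisons above and is no separate measurement of them. Over 30 deubiquitinase circRNAs with at least 10 junction reads in every library, the median fraction was 0.515, 0.600, 0.524 and 0.582, in the order of the 4 libraries. Over the 4052 such circRNAs of all hosts it was 0.509, 0.524, 0.520 and 0.528. Of the 30, 13 had a fraction above 0.5 in every library (43.3%, against 40.7% of all) and 8 had one below 0.5 in every library. Pooled over every listed member circRNA the fraction was 0.222 and 0.227 for wild type against 0.277 and 0.280 with the deletion. The median over listed member circRNAs was 0.129 and 0.126 against 0.190 and 0.188. Over all listed circRNAs it was 0.161 and 0.157 against 0.245 and 0.226, so that the difference was not particular to the family. The 30 well-covered circRNAs, another set, gave pooled values of 0.584 and 0.613 against 0.568 and 0.593. The deletion libraries listed fewer circRNAs, and the cause of the difference over listed circRNAs was not tested.

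The fraction varied widely from host to host. The Uchl3 circRNA dominated its sites, with 0.948, 0.973, 1.00 and 0.972. The main Usp3 circRNA stood between 0.931 and 0.95 and that of Usp12 between 0.830 and 0.902. By contrast the single circRNA of Usp5, the gene of an enzyme that takes free ubiquitin chains apart, stood between 0.0847 and 0.175. Of the 2 leading Usp34 circRNAs the one that did not pass had 0.497, 0.523, 0.497 and 0.436. The other had 0.331 (95% counting interval 0.255 to 0.411) and 0.494 (0.426 to 0.560) in wild type and 0.163 (0.0829 to 0.271) and 0.122 (0.0554 to 0.221) in the deletion. For the largest Otud7b circRNA the fraction was 0.235 and 0.283 for wild type against 0.357 and 0.514 with the deletion, and for the Usp6nl circRNA that rose it was 0.248 and 0.113 against 0.438 and 0.430. For Usp30 it was 0.654 and 0.683 against 0.807 and 0.682, so that deletion P12 alone stood out.

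**Figure D5:**
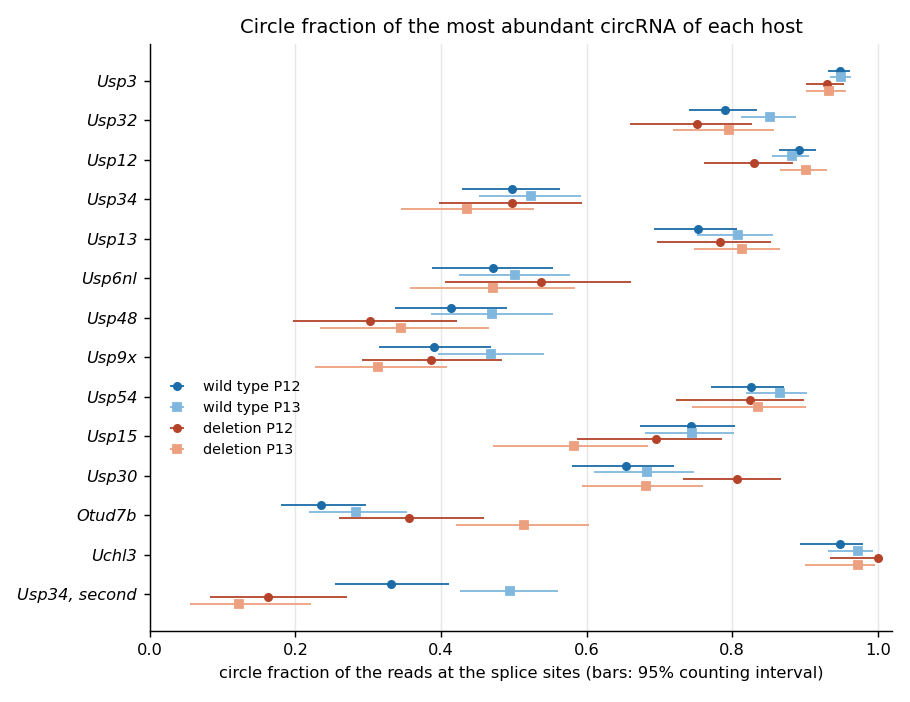
Circle fraction (2 times junction reads over 2 times junction reads plus other reads at the same sites) of the most abundant circRNA of 13 hosts, and of the Usp34 circRNA that fell (Usp34, second), 1 point per library with 95% counting intervals as bars. Usp3 and Uchl3 circles lie above 0.93 in every library, and the second Usp34 circRNA is lower in both deletion libraries.

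Other genes of the ubiquitin system were counted from lists for comparison. Of 32 further deubiquitinase genes of other names 20 had circles and 10 were tested. Of these Zranb1, an OTU protease gene, rose and Psmd14, the deubiquitinase gene of the proteasome lid, fell. Zranb1 held 440 and 432 wild-type reads against 238 and 280 with the deletion (0.46, SE 0.14, adjusted p 0.0160). Psmd14 held 24 and 34 reads in wild type and was unlisted in the deletion. With 3 reads set for each unlisted library, the deletion was 3.47-fold lower at P12 and 4.88-fold lower at P13. These ratios leave out the counting error of the wild-type reads. Psmd14 and Uba6 met the filter through wild type alone. Of 21 cofactor genes 8 were tested and 1 fell: Stam2, an endosomal partner of Usp8, with 60 and 87 reads against 11 and 10 (-1.57, SE 0.44, adjusted p 0.00545). Of 42 ubiquitin-activating and conjugating genes 11 were tested. Nae1, Ube2j1 and Ube2k rose and Uba6 (21 and 29 reads against 0 and 3) fell, where Nae1 encodes a subunit of the enzyme that activates NEDD8 rather than ubiquitin. Ube2k held 1050 and 1114 reads against 554 and 739 (0.46, SE 0.11, adjusted p 8.63e-04). Of 9 SUMO and NEDD8 protease genes 6 were tested and none passed by edgeR or DESeq2. The counts of these small lists stand beside 7.44% higher and 6.59% lower among all hosts tested by edgeR. The DESeq2 share over all hosts was not counted. The p-values here are those of edgeR's quasi-likelihood test, and the lists' median fold changes were -0.20, -0.10, 0.26 and -0.19 in this order, against -0.05 over all hosts.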

How the data were processed

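Circular RNA was sequenced from 4 libraries of mouse ocular tissue, 1 per group, with 299723 to 759063 junction reads each. The authors deposited per circRNA the raw counts of junction and non-junction reads, in the column layout of CIRI per the file headers. As a fraction the authors deposited 2 times the junction reads over the sum of that and the non-junction reads, which held for every circRNA. The deposited SRPBM signal was the junction reads times 1 constant per library, and its meaning was not given in the sources used here. The submitters' processing notes name BWA and DESeq2 without role or version. Build and annotation were likewise not stated.

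Reads were summed per single host gene. Of 7252 host identifiers 7241 were matched to symbols in a RefSeq table (GRCm38.p6), used for names alone. Hosts and circRNAs that reached 10 reads in 2 or more libraries were fitted with edgeR 4.0.16 (TMM, robust quasi-likelihood, genotype and day as terms), with Benjamini-Hochberg adjustment over all features and a threshold of 0.05. DESeq2 1.42.0 was an alternative. The fit was tested on simulated data. Library pairs were compared by exact conditional intervals (95%). For a ratio to an unlisted circRNA or host, the unlisted value was set to 3 reads, with no counting error on the wild-type reads. Intervals cover counting error only. Other alternatives were the scaling, the filter, the terms, each library left out, the circRNA class, the host rule and the minimum reads.

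Named in full were the 10 hosts with most reads and their main circRNAs, all members that passed a test, and circRNAs with at least 20 reads in 1 genotype and none listed in the other. Other members were named with their role group, for a call in a pair, or as examples chosen after their values were seen. The members and lists were chosen with earlier results of these data known. A further gene was left out and is not reported here.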

Additional observations from a re-analysis of the deposited data

Results flagged for a closer look

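Among circRNAs with several deposited hosts, which the comparisons leave out, 3 named a deubiquitinase gene, and the hosts were Otud7b together with the microRNA gene Mir1946b. They held 0 and 6 wild-type reads at P12 and P13, against 2 and 0 with the deletion. The 6 reads in wild type P13 exceed the 3 that were set here for an unlisted circRNA. Adding them to Otud7b left its fold change at 0.72 (adjusted p 0.0411, edgeR's quasi-likelihood test).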

How the results depend on the processing

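No paired analysis was possible because each group holds 1 library and the labels give no replicate numbers to pair, but the day term of the fit matches libraries by day. The 2 hosts called for genotype remained 2 in number with DESeq2's size factors, the exon class alone or circRNAs of several hosts added. They became 27, all lower, with the SRPBM constants, 0 by DESeq2, 1 without a filter, 1 with genotype alone and 0 without each host's most abundant circRNA, and between 0 and 3 with 1 library left out. The 3 circRNAs became 37, 0, 1 and 0 under the first 4 of these settings and between 0 and 8 with 1 library left out. Day calls were 0 under every alternative run. The shares of all hosts and circRNAs called under these alternatives were not counted.

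In the library pairs, SRPBM scaling turned the 3 and 4 host calls between genotypes at P12 and P13 into 28 and 28, and the 3 and 8 circRNA calls into 40 and 39. A minimum of 50 reads left 1 host at P12 and 1 between days in wild type, and 0 circRNAs at P12, 3 at P13 and 0 between days in either genotype. At 2-fold, 0 hosts were called between days in the deletion. At 1.5-fold, 5 circRNAs were called at P12, 13 at P13 and 13 between days in wild type.

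Direction of the genotype change turned under SRPBM scaling for Usp32 (-1.49), Usp13 (-1.23), Usp6nl (-1.43), Usp48 (-1.52), Usp15 (-1.34), Otud7b (-0.78), Usp30 (-0.84) and the Usp30 circRNA (-0.67). Without a filter it turned for Usp32 (-0.028) and Usp48 (-0.055). With genotype alone it turned for Usp12 (0.013) and Usp48 (-0.0068), at values near 0. Without each host's main circRNA it turned for Usp12 (0.36), Usp54 (0.51) and Usp30 (-1.27). With 1 library left out the range was -0.13 to 0.11 for Usp32, -0.39 to 0.33 for Usp12, -0.21 to 0.13 for Usp48 and -0.17 to 0.0067 for Usp54. The cause was not tested.

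The share of reads, in the order P12 and P13 of wild type and then of the deletion, was 0.630%, 0.630%, 0.606% and 0.626% within the exon class. It was 0.556%, 0.556%, 0.516% and 0.536% with at least 5 reads, and 0.552%, 0.547%, 0.518% and 0.538% without Usp6nl, an alternative chosen after seeing the data that left 2 circRNAs called. The circle fraction was 0.129, 0.126, 0.190 and 0.188 as a median, and 0.584, 0.613, 0.568 and 0.593 with at least 10 reads in every library. With 1 library per group the depth limits the pairs: hosts and circRNAs under 20 reads in a pair were not compared.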
